A study of Homo sapiens with 13 samples.

Results

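The cyclin-dependent kinase inhibitors are the genes whose products bind and restrain the kinases that drive the cell division cycle. They were chosen by symbol as the CIP/KIP genes CDKN1A, CDKN1B and CDKN1C and the INK4 genes CDKN2A, CDKN2B, CDKN2C and CDKN2D. These 7 genes are all in the deposited table of 67882 genes, and 6 of them were among the 15734 genes with enough counts to be tested. CDKN1C was the member left untested, with at most 9 counts in any library.

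The transcripts were measured by RNA sequencing in PC3 cells, an epithelial line from human prostate cancer, in which a short hairpin RNA targets TIMP1, the secreted metalloproteinase inhibitor. Every group carries the hairpin, and whether the line is a single clone is not stated in the labels. The 13 libraries form 4 groups: Vehicle (n = 3), Docetaxel at 1 nM (n = 4), Adapalene at 5 µM (n = 3) and Combo, which received both drugs (n = 3). Treatment lasted 48 h, and the doses within Combo are not restated. The taxane docetaxel stabilises microtubules, and adapalene is a retinoid that acts through retinoic acid receptors. Replicates are technical according to the design text, so SDs and p-values below cover only that technical spread. The 3 comparisons with Vehicle share the same control libraries. In RNA from whole cultures, fewer cells with a transcript and less of it per cell cannot be told apart.

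CIP/KIP proteins bind complexes of cyclins with their kinases and can block CDK2, which drives entry into DNA synthesis. INK4 proteins bind only CDK4 and CDK6 and keep them from pairing with D-type cyclins, which leaves the retinoblastoma protein in the form that holds back E2F factors. CDKN1A is the classical target of p53, which PC3 cells lack in functional form, and it is also induced by factors other than p53.

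Library totals ranged from 11948720 to 16235041 counts, and 21836 to 25058 genes were detected per library. Mitochondrially encoded genes took 0.722 to 2.82% of counts and exceeded 2% in 1 library of each group: Vehicle 3, Docetaxel 4, Adapalene 3 and Combo 3. TIMP1, the hairpin's target, lay at 55.0 to 65.0 CPM in Vehicle, 56.2 to 71.0 in Docetaxel, 70.4 to 105 in Adapalene and 98.1 to 111 in Combo (counts scaled to a common library size, with the TMM factors of edgeR). Adapalene and Combo lay above Vehicle without overlap, and the part of this difference in the results below was not tested. These values show no knockdown by themselves, because hairpin-free cells were not analysed here. Epithelial markers were high in every library (6 genes, 2718 to 4265 CPM summed), and EPCAM fell under both Adapalene (log2 −0.50) and Combo (log2 −0.53). Of the androgen-dependent prostate markers, KLK2 was at 0 in all libraries and KLK3 had at most 1 count. Leukocyte markers summed to 0.852 to 1.38 CPM in Vehicle, 1.21 to 2.30 in Docetaxel, 1.72 to 2.42 in Adapalene and 2.25 to 3.13 in Combo. Fibroblast markers summed to 2.698 to 3.41 CPM in Vehicle, 4.43 to 6.20 in Docetaxel, 3.42 to 4.31 in Adapalene and 3.92 to 4.57 in Combo. Endothelial markers summed to 9.27 to 16.7 CPM in Vehicle, 9.16 to 12.8 in Docetaxel, 6.34 to 20.9 in Adapalene and 9.77 to 19.5 in Combo. Of these, PECAM1 had 72 to 267 counts per library, whereas CDH5 had at most 8 and VWF at most 7. The part of these sums in the results below was not tested.

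Relative to Vehicle, the treated cells held more CDKN1A and less CDKN2C in all 3 treatments, and more CDKN2B in Docetaxel and Combo. A gene was called when the quasi-likelihood test of edgeR gave an adjusted p under 0.05. Of the 6 members tested, 2 rose and 1 fell in Docetaxel, where 25.9% of all genes were called (13.2% up, 12.8% down). In Adapalene 1 rose and 1 fell, against 18.4% of all genes called (9.25% up, 9.16% down). In Combo 2 rose and 1 fell, against 25.8% of all genes called (13.5% up, 12.3% down). The median log2 difference of the 6 members was 0.09, 0.21 and 0.23 in Docetaxel, Adapalene and Combo, beside −0.02, 0.02 and 0.02 over all genes tested.

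The promoters of the 3 genes that were called against Vehicle are shown so that the members that moved up and down can be compared by sequence. Each is the stretch of 190 bases from position −250 to −61 relative to the RefSeq start, taken from RefSeq on GRCh38.p14 and written 5′ to 3′ on the strand of the gene. Capitals mark the GC box, GGGCGG on either strand, a motif bound by SP1 and KLF factors.
CDKN1A, chr6:36678464-36678653, plus strand: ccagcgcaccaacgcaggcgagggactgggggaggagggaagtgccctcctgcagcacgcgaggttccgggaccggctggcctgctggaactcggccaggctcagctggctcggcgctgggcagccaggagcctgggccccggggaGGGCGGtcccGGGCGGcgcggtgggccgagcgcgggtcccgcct
CDKN2B, chr9:22009366-22009555, minus strand: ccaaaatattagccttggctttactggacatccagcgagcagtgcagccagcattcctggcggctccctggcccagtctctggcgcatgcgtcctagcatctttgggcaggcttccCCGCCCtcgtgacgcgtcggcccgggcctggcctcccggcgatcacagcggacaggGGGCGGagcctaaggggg
CDKN2C, chr1:50960495-50960684, plus strand: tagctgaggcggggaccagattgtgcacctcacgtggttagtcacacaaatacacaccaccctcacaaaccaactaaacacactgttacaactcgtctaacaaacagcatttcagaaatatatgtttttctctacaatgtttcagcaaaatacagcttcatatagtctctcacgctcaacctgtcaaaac

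CDKN1A and CDKN2B, the members that rose, each had 2 GC boxes in this window and a G+C content of 77.4% and 66.3%. CDKN2C, the member that fell, had 0 GC boxes and a G+C content of 41.6% at the first of its 3 RefSeq starts. Its second start had 3 GC boxes in the same window and its last had 0, so the contrast depends on which start is read. The counts are per gene and do not show which start was used. Among members not called against Vehicle, CDKN1B and CDKN2D each had 1 GC box in the same window, and CDKN2A had 0 at each of its 2 starts. Whether the GC box goes with the direction of change was not tested. Of 35116 promoters searched in the same window, 33% held the GC box. The CDKN1A window lies before the exon of the main start and within an intron of longer transcripts, and it overlaps the antisense long noncoding RNA DINOL, which had at most 3 counts. Other motifs were sparse. CDKN1A held 1 E-box of the form CAGCTG (10.7% of promoters held it), and CDKN2C held 1 of the form CACGTG (4.13%). AGGTCA, the core element of retinoic acid receptor sites, was in none of the windows of the 6 members with a promoter in the table, against 9.13% of all promoters. A match or its lack in so short a window says nothing of the factor's binding.

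**Figure D1:**
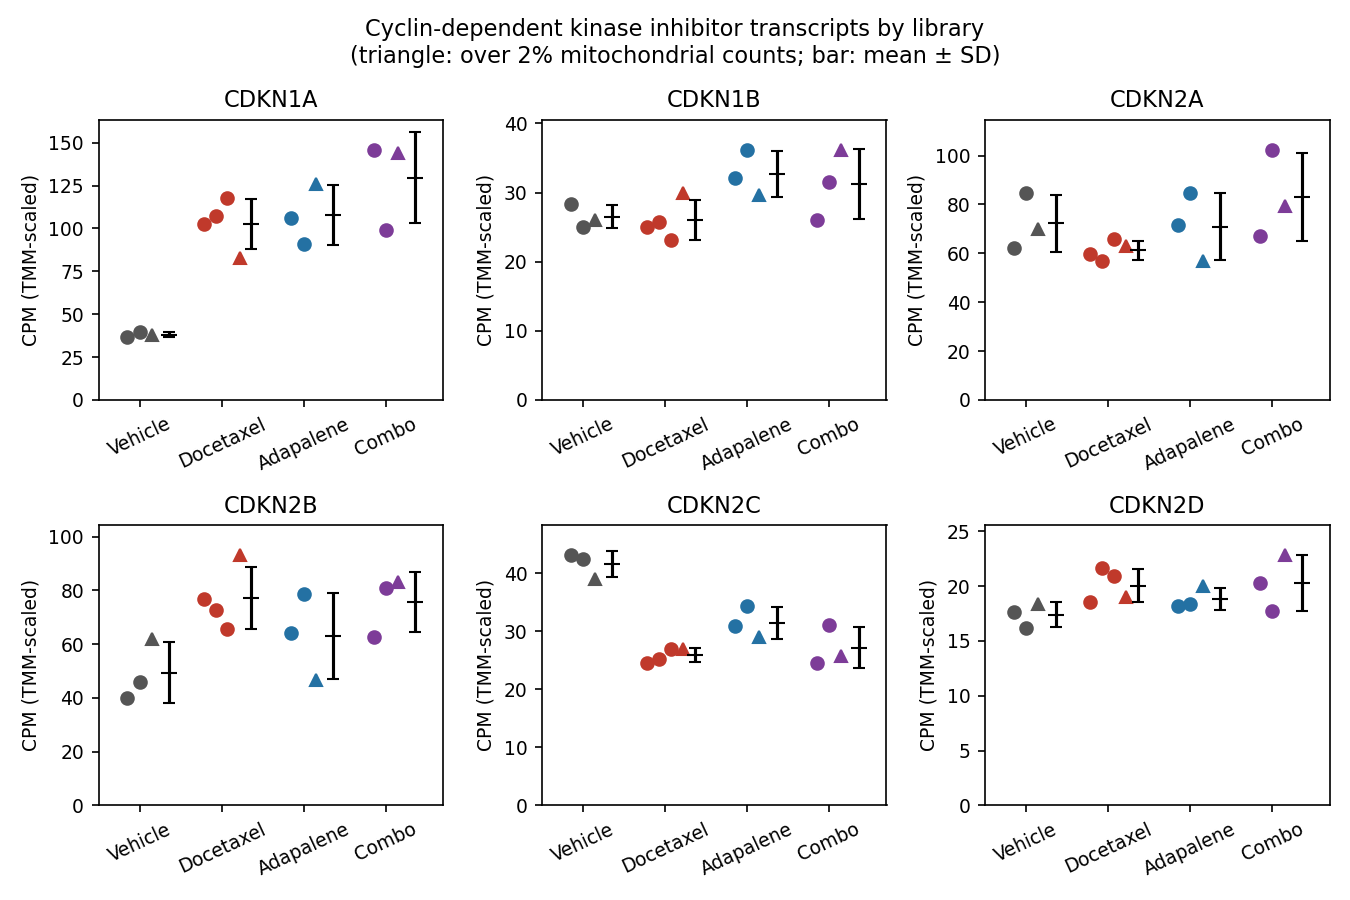
CPM of the 6 tested inhibitors (vertical axis, linear, from 0) in each library of the 4 groups, with triangles for libraries over 2% mitochondrial counts and bars for mean ± SD. CDKN1A sits between 36.9 and 39.8 CPM in Vehicle and at 82.8 CPM or above in every treated library, while CDKN2C sits below Vehicle in every treated library.

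CDKN1A encodes p21, the CIP/KIP inhibitor that also binds the replication clamp PCNA. The gene lies at chr6:36676460-36687339 on the plus strand (GRCh38, GENCODE release 29). In Vehicle it measured 36.9, 39.8 and 37.6 CPM in replicates 1 to 3. In Docetaxel it measured 103, 107, 118 and 82.8 CPM. All 4 values lay above the highest Vehicle value, and replicate 4 was the lowest of the group. Adapalene gave 106, 90.8 and 126 CPM, and Combo gave 146, 99.2 and 144 CPM. No treated library overlapped Vehicle, whereas the 3 treated groups overlapped each other. The rise over Vehicle was 2.69-fold in Docetaxel (log2 1.43, SE 0.15, edgeR adjusted p = 1.18e-05) and 2.83-fold in Adapalene (log2 1.499, SE 0.16, edgeR adjusted p = 4.66e-05). In Combo it was 3.40-fold (log2 1.77, SE 0.16, edgeR adjusted p = 8.79e-06). The spread grew with the level: the coefficient of variation was 3.94% in Vehicle, 14.3% in Docetaxel, 16.3% in Adapalene and 20.4% in Combo.

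On the log2 scale, the CDKN1A response to one drug was smaller when the other was present. This reading takes the doses in Combo to be those of the single-drug groups, which the labels do not restate. The interaction, which is the Adapalene effect on top of Docetaxel minus the Adapalene effect on Vehicle, was −1.16 on the log2 scale (SE 0.21, 95% interval −1.60 to −0.72, edgeR adjusted p = 0.0124). CDKN1A was the only member of the 6 called in this test, in which 1.44% of all genes were called (0.210% up, 1.23% down). The log2 effects of the single drugs summed to 2.93, a 7.61-fold rise, against the measured 3.40-fold. On the linear scale the single-drug gains added to Vehicle came to 172 CPM (SE 12.5) against 129.6 CPM (SE 15.3) measured in Combo, a difference that was not tested. Combo exceeded Docetaxel by log2 0.34 (SE 0.14, edgeR adjusted p = 0.0855) and Adapalene by log2 0.27 (SE 0.15, edgeR adjusted p = 0.999), and neither was called. The 95% intervals were 0.05 to 0.63 and −0.05 to 0.58. Without Combo replicate 2, the lowest of its group, the difference from Docetaxel was 0.50 (edgeR adjusted p = 0.0159). Docetaxel and Adapalene differed by −0.07 (95% interval −0.37 to 0.23, edgeR adjusted p = 0.74).

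CDKN1B encodes p27, the inhibitor that accumulates in resting cells and is controlled mostly through protein turnover. It lies at chr12:12715058-12722371 on the plus strand. Its transcript measured 28.3, 25.1 and 26.1 CPM in Vehicle and 25.03, 25.8, 23.2 and 30.0 CPM in Docetaxel. Adapalene gave 32.1, 36.2 and 29.6 CPM, and Combo gave 26.0, 31.6 and 36.1 CPM. The Adapalene libraries all lay above Vehicle, though only narrowly. The differences from Vehicle were log2 −0.02 in Docetaxel (edgeR adjusted p = 0.905), 0.30 in Adapalene (edgeR adjusted p = 0.102) and 0.24 in Combo (edgeR adjusted p = 0.173), and none was called. Without the 4 libraries over 2% mitochondrial counts the Adapalene difference was 0.35 (edgeR adjusted p = 0.0463). CDKN1B was lower in Docetaxel than in Adapalene by log2 −0.33 (SE 0.12, edgeR adjusted p = 0.0451), with the groups overlapping at 30.0 and 29.6 CPM. That call was lost without Docetaxel 1, 2 or 3 or Adapalene 1 or 2 (edgeR adjusted p 0.093 to 0.195), and with both other scalings and limma voom.

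CDKN1C encodes p57, an imprinted CIP/KIP inhibitor that acts mainly in development. It lies at chr11:2883213-2885773 on the minus strand. Its counts were 0, 1 and 2 in Vehicle, 0, 3, 0 and 3 in Docetaxel, 2, 1 and 1 in Adapalene and 2, 2 and 9 in Combo. At a floor of 3 counts, equal to 0.183 to 0.256 CPM depending on the library, all but Combo 3 were at or under the floor. No fold is given, and a difference was not detectable at counts this low. With no filter on low counts the edgeR adjusted p for CDKN1C was 0.205 to 1 over the 7 comparisons.

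CDKN2A encodes p16 and, from another first exon and reading frame, the p53 regulator ARF. It lies at chr9:21967753-21995301 on the minus strand, and counts per gene do not separate the products. It measured 62.1, 84.8 and 69.8 CPM in Vehicle and 59.5, 56.9, 65.7 and 63.2 CPM in Docetaxel. Adapalene gave 71.5, 84.5 and 56.8 CPM, and Combo gave 67.3, 102 and 79.2 CPM. Each treated group overlapped Vehicle. No difference from Vehicle was called: log2 −0.24 in Docetaxel (edgeR adjusted p = 0.245), −0.03 in Adapalene (edgeR adjusted p = 0.928) and 0.20 in Combo (edgeR adjusted p = 0.362). With no filter on low counts, the lower level in Docetaxel was called (log2 −0.26, edgeR adjusted p = 0.0398). Between the treated groups, Combo exceeded Docetaxel by log2 0.44 (SE 0.14, edgeR adjusted p = 0.0389), and the groups did not overlap. CDKN2A was the 1 member of 6 called between Combo and Docetaxel, where 24.0% of all genes were called (12.8% up, 11.2% down). The call was lost without any 1 of the Docetaxel libraries (edgeR adjusted p 0.0502 to 0.101), without Combo 2 (0.237) and without Combo 3 (0.0597).

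CDKN2B encodes p15, the INK4 inhibitor known for its induction by TGF-beta, and is the neighbour of CDKN2A at chr9:22002903-22009363 on the same strand. It measured 40.1, 46.1 and 62.1 CPM in Vehicle and 77.0, 72.8, 65.6 and 93.2 CPM in Docetaxel. Adapalene gave 64.1, 78.6 and 46.6 CPM, and Combo gave 62.7, 80.7 and 83.3 CPM. Docetaxel and Combo lay above Vehicle without overlap, by a narrow gap in Combo (62.7 against 62.1 CPM), while Adapalene overlapped Vehicle. The rise was 1.56-fold in Docetaxel (log2 0.64, SE 0.18, edgeR adjusted p = 0.015) and 1.53-fold in Combo (log2 0.61, SE 0.19, edgeR adjusted p = 0.0256). In Adapalene the difference was 0.35 (SE 0.19, edgeR adjusted p = 0.206), and it was called with no filter on low counts (log2 0.33, edgeR adjusted p = 0.0184). The call in Docetaxel was lost without Vehicle 1 (edgeR adjusted p = 0.0752) or Vehicle 2 (edgeR adjusted p = 0.0687). The call in Combo was lost without Vehicle 1 (0.116), Vehicle 2 (0.0884), Combo 2 (0.0608) or Combo 3 (0.0968), all edgeR adjusted p.

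The libraries over 2% mitochondrial counts held the highest CDKN2B value of Vehicle, Docetaxel and Combo and the lowest of Adapalene. Without these 4 libraries CDKN2B was higher in Adapalene than in Vehicle by log2 0.73 (edgeR adjusted p = 0.00268), and its interaction was −0.73 (edgeR adjusted p = 0.0427) against −0.38 (edgeR adjusted p = 0.466) with all libraries. The part of the mitochondrial share in these values was not tested. CDKN2B-AS1, the antisense gene that runs through the CDKN2B locus and overlaps 341 bases of CDKN2A exons, was low, at 2.698 to 3.84 CPM in Vehicle and 3.83 to 6.57 CPM in Docetaxel. Its log2 difference of 0.49 was not called (edgeR adjusted p = 0.117). Whether the counting used strand is not stated in the sources used here, so reads of overlapping genes cannot be told apart.

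**Figure D2:**
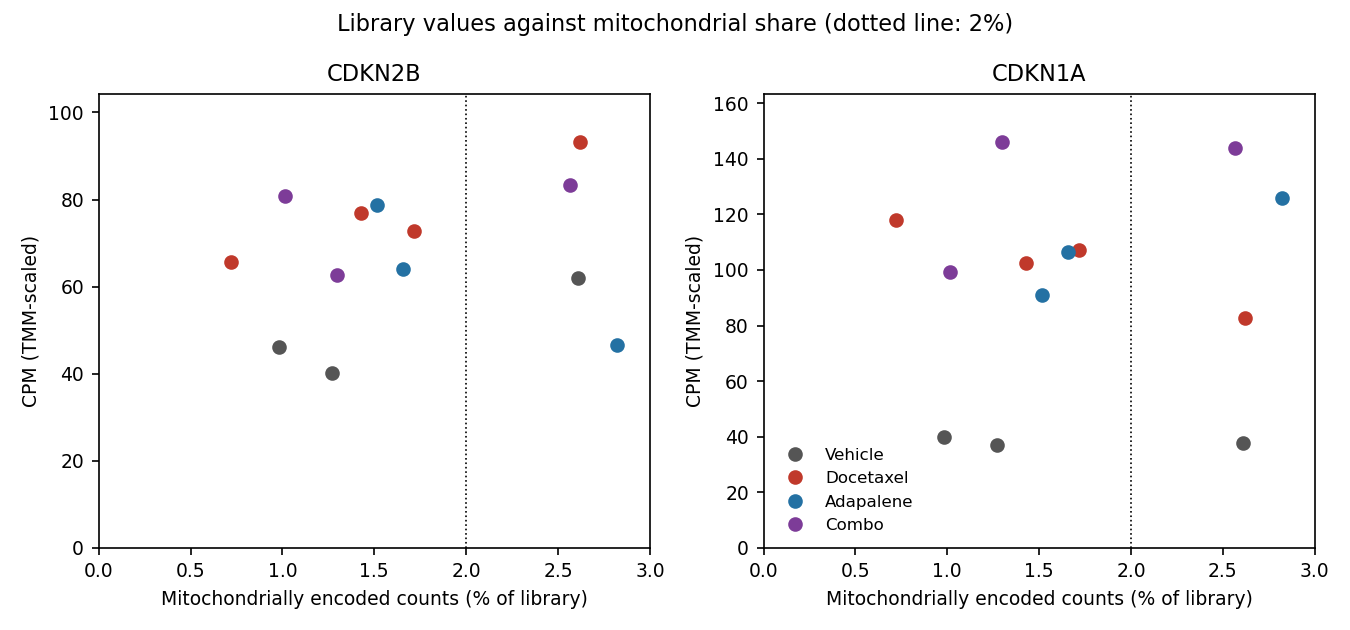
CPM of CDKN2B and CDKN1A (vertical axes, linear, from 0) against the share of counts from mitochondrially encoded genes (horizontal axis, %), 1 point per library and 1 colour per group. Right of the dotted line at 2%, the Adapalene library is the lowest of its group for CDKN2B at 46.6 CPM, while all treated libraries stay above Vehicle for CDKN1A.

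CDKN2C encodes p18, an INK4 inhibitor expressed in dividing cells, at chr1:50960745-50974633 on the plus strand. It measured 43.1, 42.5 and 39.0 CPM in Vehicle and 24.5, 25.2, 26.9 and 26.9 CPM in Docetaxel. Adapalene gave 31.0, 34.4 and 28.9 CPM, and Combo gave 24.5, 31.1 and 25.7 CPM. Every treated library lay below every Vehicle library. CDKN2C fell by 0.68 on the log2 scale in Docetaxel (SE 0.09, edgeR adjusted p = 0.000118), by 0.40 in Adapalene (SE 0.10, edgeR adjusted p = 0.012) and by 0.61 in Combo (SE 0.10, edgeR adjusted p = 0.000522). The Adapalene call was lost without Vehicle 1 (edgeR adjusted p = 0.0505). Docetaxel was lower than Adapalene by log2 −0.28 (SE 0.09, edgeR adjusted p = 0.0352) with no overlap, a call lost without Docetaxel 1 or 2 or Adapalene 1 or 2 (edgeR adjusted p 0.083 to 0.17) and with no filter on low counts (0.0722). CDKN1B and CDKN2C were the 2 members of 6 called between Docetaxel and Adapalene, where 29.7% of all genes were called (14.1% up, 15.6% down). The single-drug log2 effects on CDKN2C summed to −1.08 against −0.61 in Combo, and the interaction of 0.47 was not called (SE 0.14, 95% interval 0.18 to 0.76, edgeR adjusted p = 0.0986).

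CDKN2D encodes p19, the remaining INK4 inhibitor, at chr19:10566462-10569059 on the minus strand. It measured 17.7, 16.2 and 18.3 CPM in Vehicle and 18.6, 21.6, 21.0 and 19.0 CPM in Docetaxel. Adapalene gave 18.2, 18.4 and 20.02 CPM, and Combo gave 20.2, 17.8 and 22.8 CPM. The Docetaxel libraries lay just above Vehicle and the other groups overlapped it. The differences of 0.20 in Docetaxel (edgeR adjusted p = 0.154), 0.11 in Adapalene (edgeR adjusted p = 0.493) and 0.22 in Combo (edgeR adjusted p = 0.145) were not called. Their 95% intervals were −0.01 to 0.42, −0.12 to 0.35 and −0.01 to 0.45.

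By ranges alone, 4 of the 6 tested members did not overlap between Docetaxel and Vehicle (36.9% of all genes did not), 3 of 6 between Adapalene and Vehicle (35.1%) and 3 of 6 between Combo and Vehicle (39.4%). Between the treated groups, 1 of 6 did not overlap for Combo and Docetaxel (32.1% of all genes), 1 of 6 for Docetaxel and Adapalene (35.3%) and 0 of 6 for Combo and Adapalene (8.65%). No member was called between Combo and Adapalene, where 0.0381% of all genes were called. At an unadjusted p under 0.05 edgeR also gave 0 members there, and DESeq2 and limma voom called 0.

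**Figure D3:**
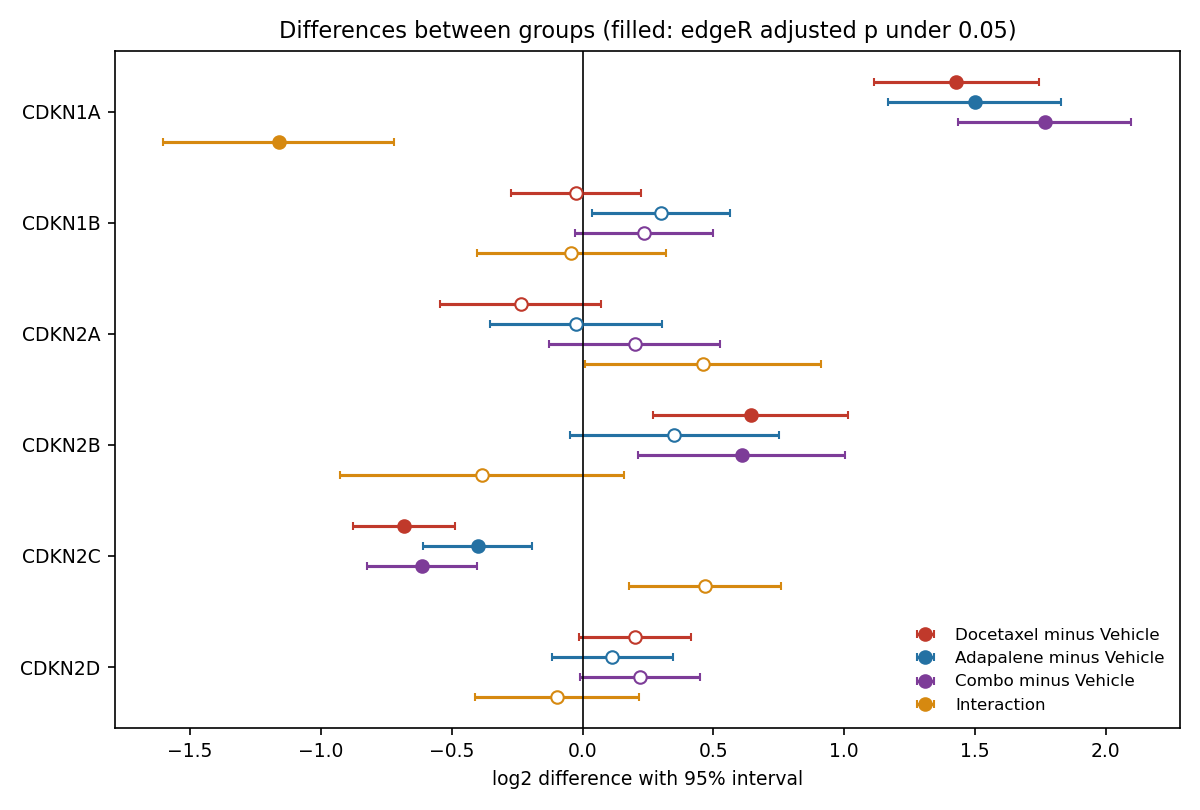
Log2 difference (horizontal axis) of each tested inhibitor in the 3 comparisons with Vehicle and in the interaction, with 95% intervals from edgeR; filled symbols passed an adjusted p under 0.05. CDKN1A lies to the right of 0 in all 3 comparisons with Vehicle and at −1.16 in the interaction, and CDKN2C lies to the left of 0 in all 3 comparisons with Vehicle.

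Levels of different genes were compared per kilobase of exon. In Vehicle, CDKN2A was highest at 16.7 CPM per kb, followed by CDKN2C at 12.5, CDKN1A at 12.5, CDKN2B at 12.2, CDKN2D at 11.6 and CDKN1B at 9.42. CDKN1C was far below them at 0.0262. The middle of this order was too close to rank. In the treated groups CDKN1A was the highest member, at 33.7 CPM per kb in Docetaxel, 35.3 in Adapalene and 42.5 in Combo. CDKN2C went from 12.5 in Vehicle to 7.80, 9.47 and 8.18 CPM per kb in the same groups, below CDKN1B in each of them.

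The summed level of the 7 genes was 74.9 ± 3.26 CPM per kb in Vehicle (SD, n = 3), 97.3 ± 2.26 in Docetaxel (SD, n = 4), 100.9 ± 2.95 in Adapalene (SD, n = 3) and 113 ± 7.63 in Combo (SD, n = 3). CDKN1A made up 16.0 to 17.0% of the sum in Vehicle, 28.2 to 38.5% in Docetaxel, 28.6 to 41.9% in Adapalene and 29.9 to 43.9% in Combo. The ratio of CDKN1A to CDKN2C counts, the members that moved in opposite directions, was 0.855 to 0.965 in Vehicle and at least 2.64 in every treated library. The ratio of CDKN2B to its neighbour CDKN2A was 0.544 to 0.889 in Vehicle and 0.999 to 1.47 in Docetaxel, without overlap, whereas Adapalene (0.821 to 0.930) and Combo (0.788 to 1.05) overlapped Vehicle.

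**Figure D4:**
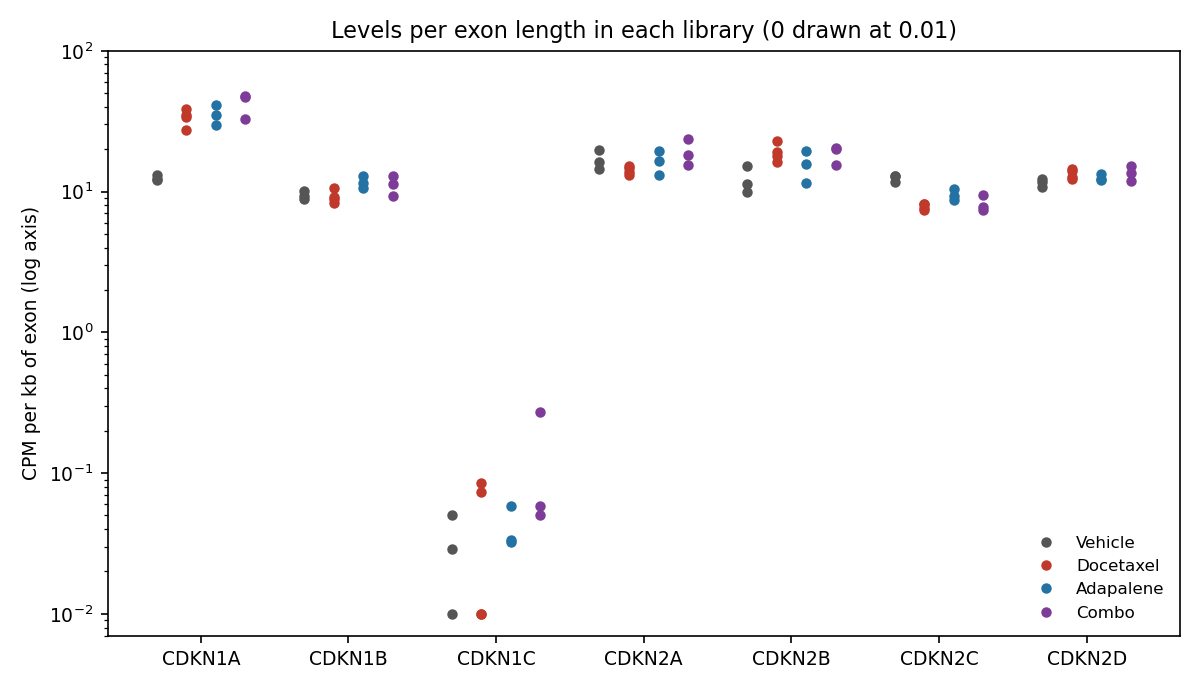
Level of each inhibitor per kilobase of exon (vertical axis, CPM per kb, log scale) in each library, 1 point per library and 1 colour per group, with values of 0 drawn at 0.01. CDKN1A moves from a mean of 12.5 in Vehicle, among the other members, to 33.7, 35.3 and 42.5 in the treated groups, above all of them.

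The genes that act with these inhibitors were taken from 5 lists. Of 19 tested kinases, cyclins and CDC25 phosphatases, the partners and activators of the inhibited complexes, 1 rose and 7 fell in Docetaxel, 2 rose and 4 fell in Adapalene, and 1 rose and 6 fell in Combo. Their median log2 differences were −0.20, −0.10 and −0.02, beside −0.02, 0.02 and 0.02 over all genes. These counts and those of the next lists stand beside 25.9%, 18.4% and 25.8% of all genes called in Docetaxel, Adapalene and Combo. CCNB1, the mitotic cyclin, measured 332 ± 22.4 CPM in Vehicle and 298 ± 14.2 in Docetaxel but 171 ± 15.4 in Adapalene and 178 ± 23.0 in Combo (SD, n = 3 or, for Docetaxel, 4). It fell by 0.96 on the log2 scale in Adapalene and by 0.89 in Combo (edgeR adjusted p = 3.2e-05 and 2.8e-05), and its difference in Docetaxel was −0.15 (edgeR adjusted p = 0.208). CCNB2, its relative, and CCNA2, the cyclin of S and G2 phase, fell in all 3 treatments, by 0.30, 0.79 and 0.71 for CCNB2 and by 0.34, 0.54 and 0.67 for CCNA2 in Docetaxel, Adapalene and Combo.

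Of 19 tested members of the RB and E2F list, the targets downstream of the kinases, 1 rose and 6 fell in Docetaxel, 4 fell in Adapalene and 8 fell in Combo. Median log2 differences were −0.15, −0.15 and −0.27. E2F5, a repressor of the family, fell by 0.74 in Adapalene and by 0.66 in Combo (edgeR adjusted p = 0.000297 and 0.000358), with 0.03 in Docetaxel (edgeR adjusted p = 0.824). E2F1, an activator, fell by 0.53 in Docetaxel (edgeR adjusted p = 0.000927), and its values in Adapalene (−0.14) and Combo (−0.04) were not called. RBBP4, a histone-binding partner of RB, fell by 0.39 in Docetaxel and by 0.36 in Combo.

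Of 35 tested transcriptional regulators of the CIP/KIP genes, 13 rose and 6 fell in Docetaxel, 3 rose and 7 fell in Adapalene, and 6 rose and 7 fell in Combo, with medians of 0.02, 0.06 and −0.01. EGR1, an early growth response factor, measured 2.07 ± 0.970 CPM in Vehicle, 97.6 ± 14.1 in Docetaxel, 4.58 ± 2.39 in Adapalene and 12.3 ± 7.13 in Combo. Its log2 rise was 5.57 in Docetaxel (edgeR adjusted p = 7.06e-07) and 2.58 in Combo (edgeR adjusted p = 0.000977). KLF4, a factor that binds GC-rich promoters, rose by log2 1.41, 0.72 and 1.13 in Docetaxel, Adapalene and Combo, and its interaction was −1.001 (edgeR adjusted p = 0.00671). KLF6 rose by 1.33 in Docetaxel and 0.48 in Combo, with 0.13 in Adapalene (edgeR adjusted p = 0.512). EGR1 and KLF6 were higher in Docetaxel than in Adapalene by log2 4.42 and 1.20 (edgeR adjusted p = 2.29e-06 and 1.53e-05). SP1, the other factor named above for the GC box, is given here after its values were seen. It fell by log2 0.34 in Docetaxel (edgeR adjusted p = 0.0153). Its differences of −0.14 in Adapalene (edgeR adjusted p = 0.352) and −0.26 in Combo (edgeR adjusted p = 0.0669) were not called. The part of these factors in the CDKN1A values was not tested.

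Of 16 genes for the turnover of CIP/KIP proteins, none rose, 3 fell in Docetaxel (where 12.8% of all genes fell), 5 fell in Adapalene and 5 fell in Combo, with medians of −0.17, −0.14 and −0.17. SKP2, the ubiquitin ligase subunit that marks p27 and p21 for degradation, measured 129 ± 7.41 CPM in Vehicle, 78.2 ± 5.10 in Docetaxel, 92.1 ± 2.61 in Adapalene and 84.4 ± 6.21 in Combo. It fell by 0.73, 0.49 and 0.62 on the log2 scale (edgeR adjusted p = 6.5e-06, 0.000747 and 8.24e-05), and its interaction was 0.60 (edgeR adjusted p = 0.0109). PCNA, the clamp on which p21 is degraded, fell by 0.62, 0.44 and 0.53 in the same order. CDC20, an activator of the anaphase-promoting complex, fell by 0.92 in Adapalene and by 0.75 in Combo, with −0.08 in Docetaxel (edgeR adjusted p = 0.638).

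Of 26 tested regulators of the INK4 locus, 8 rose and 4 fell in Docetaxel, 3 rose and 2 fell in Adapalene, and 6 rose and 2 fell in Combo, with medians of 0.01, −0.05 and −0.05. JUNB, an AP-1 subunit, rose by log2 1.498, 0.53 and 1.21 in Docetaxel, Adapalene and Combo (edgeR adjusted p = 3.88e-07, 0.00336 and 8.79e-06). ETS2 rose by 0.99 in Docetaxel and 0.52 in Combo, and ETS1 rose by 0.95 in Docetaxel. Both are transcription factors of the ETS family. From the 5 lists, CCND2, CDK7, E2F2, FOXO6, STAT3, RXRB, RING1 and ID3 were not tested, with at most 9 counts in any library. Of these, E2F2, RXRB, RING1 and ID3 had 0 counts in every library, and CDK7 had at most 3. Whether such counts reflect the cells or the read mapping and counting was not tested.

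Genes behind the smaller of these counts are named here, having been picked after their values were seen. Among the kinases and cyclins, CDK6 rose in Docetaxel (log2 0.53), CCND3 rose in Adapalene (0.29) and Combo (0.42), and CCNE2 rose in Adapalene (0.51). The 4 that fell in Adapalene were CCNA2, CCNB1, CCNB2 and WEE1, the kinase that restrains CDK1. In the RB and E2F list, E2F7 rose in Docetaxel (0.44), and E2F3, E2F5, TFDP1 and LIN9 fell in Adapalene. KLF4, KLF5 and CEBPB were the CIP/KIP regulators that rose in Adapalene, and all 3 also rose in Docetaxel and Combo. For turnover, SKP2, PCNA and DTL fell in Docetaxel, whereas SKP2, PCNA, CDC20, CUL1 and CUL4A fell in both Adapalene and Combo. Among the INK4 regulators, the Polycomb readers CBX2, CBX6, CBX7 and CBX8 fell in Docetaxel, CBX7 by 0.71. KDM6B, which removes the Polycomb mark, rose by log2 0.89, 0.48 and 0.70 in Docetaxel, Adapalene and Combo. KDM6B and JUNB were among the 3 that rose in Adapalene, and PHC2 and MDM2 fell in both Adapalene and Combo.

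The genes most like each member were found by the root-mean-square difference of centred log2 CPM over the 13 libraries, as a description. Nearest to CDKN1A were CHAC1 (0.192), a glutathione-degrading enzyme, ANGPTL4 (0.199), a secreted lipase inhibitor, and the ribosomal pseudogene RPLP0P2 (0.211). The log2 differences of CHAC1 from Vehicle, which its choice for likeness fixes, were 1.57, 1.48 and 1.88 in Docetaxel, Adapalene and Combo. Nearest to CDKN2C were VPS26B (0.0863), PCCA (0.0917) and POLD1 (0.0971), the last being the catalytic subunit of DNA polymerase delta. Nearest to CDKN2B was SHFL (0.139), nearest to CDKN2A was ZNF865 (0.0883), and nearest to CDKN1B was PAK3 (0.0702).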

How the data were processed

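The deposited table gives the authors' unnormalized counts for 67882 gene identifiers, and 61369 of them matched a symbol. FastQC, STAR 2.7.10a, DESeq2 and the build GRCh38.p13 are listed in the submitters' processing notes. How reads were counted, and with which strand setting, is not stated in the sources used here. Polyadenylated RNA was sequenced as stranded single reads, per the labels' protocols. The 7 members and the lists were chosen with earlier results of these data known.

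The test was edgeR 4.0.16 under R 4.3.3 (filterByExpr by group, minimum count 10 and minimum total 15; TMM; glmQLFit and glmQLFTest over all 13 libraries with 4 group means), with Benjamini-Hochberg adjustment over 15734 genes and a threshold of 0.05. DESeq2 1.42.0 and limma 3.58.1 (voom) were alternatives, and the scripts were tested on simulated data. The log2 differences are edgeR's. Likeness used log2 of CPM plus 0.5. From each list up to 3 genes were named by rule, those with the smallest p over the 4 groups among genes called in any comparison, and others were named after their values were seen, as stated there; neighbours were all genes within 100 kb, and some genes of the lists and neighbourhoods are not reported here. Coordinates and exon lengths are from GENCODE release 29. Replicates of a group differed by more than sampling noise (chi-square per degree of freedom 2.37 to 23.5), so each library counts once. Libraries with the same replicate number deviated together between Combo and Vehicle (r of 0.330, 0.196 and 0.203), which by the rule of every pair over 0.1 pairs them in that comparison; the source is the data, not the labels. In the other comparisons at least 1 pair was at or under 0.1. Between Combo and Adapalene the pairs gave r of 0.0272, 0.591 and 0.448. Libraries of unlike number could also deviate together, as Docetaxel 4 and Vehicle 3 did (r of 0.413). The main test used no pairing, and an alternative fit added the replicate number as a block.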

Additional observations from a re-analysis of the deposited data

Results flagged for a closer look

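CDKN1A was singled out because the log2 effect of one drug differed with and without the other. The interaction was −1.16 on the log2 scale (SE 0.21, edgeR adjusted p = 0.0124). It takes the doses in Combo to be those of the single-drug groups, which the labels do not restate. CDKN1A exceeded Vehicle in 10 of 10 treated libraries. Over 20 alternative settings the interaction stayed between −1.27 and −0.9975, with an adjusted p of 3.25e-14 to 0.0434.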

How the results depend on the processing

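The 42 log2 differences of the 6 tested members were recomputed under 642 alternative values, of which 579 kept their direction and side of the threshold, 26 lost the call, 10 gained it and 27 changed sign, none of those being called. CDKN1A against Vehicle and its interaction, and CDKN2C in Docetaxel and Combo, kept their calls in all of them. The replicate block left every count of members called at its value (3, 2, 3, 1, 0, 2 and 1 in Docetaxel, Adapalene and Combo against Vehicle, Combo against Docetaxel, Combo against Adapalene, Docetaxel against Adapalene and the interaction). Without the libraries over 2% mitochondrial counts, 4 members were called in Adapalene against Vehicle and 2 in the interaction. With no filter on low counts, 4 were called in Docetaxel against Vehicle (CDKN2A gained, adjusted p = 0.0398), 3 in Adapalene against Vehicle (CDKN2B gained, adjusted p = 0.0184), 2 for Combo against Docetaxel and 2 in the interaction. RLE scaling, library totals only and limma voom each left 1 call for Docetaxel against Adapalene, CDKN1B being lost at adjusted p of 0.0509, 0.0503 and 0.0513. Leaving out 1 library at a time gave 2 to 3 members called in Docetaxel, 1 to 3 in Adapalene and 2 to 3 in Combo against Vehicle, 0 to 2 for Combo against Docetaxel, 0 for Combo against Adapalene, 0 to 2 for Docetaxel against Adapalene and 1 for the interaction. The cause was not tested.

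Signs changed for differences near 0. With library totals only, CDKN1B in Docetaxel was 0.019 and CDKN2A in Adapalene 0.029. Without the libraries over 2% mitochondrial counts, CDKN2A in Adapalene was 0.085, CDKN2D in Combo against Docetaxel −0.097 and CDKN1A in Docetaxel against Adapalene 0.15. With the replicate block, CDKN2B and CDKN2D in Combo against Docetaxel were 0.063 and −0.012, CDKN1A in Docetaxel against Adapalene 0.031 and the CDKN1B interaction 0.037. Leaving out 1 library at a time gave −0.10 to 0.027 for CDKN1B in Docetaxel against Vehicle, −0.17 to 0.11 for CDKN2A in Adapalene against Vehicle, −0.11 to 0.062 for CDKN2B in Combo against Docetaxel, −0.042 to 0.11 for CDKN2C in Combo against Docetaxel, −0.072 to 0.10 for CDKN2D in Combo against Docetaxel, −0.18 to 0.047 for CDKN1B in Combo against Adapalene, −0.18 to 0.054 for CDKN1A in Docetaxel against Adapalene and −0.16 to 0.060 for CDKN1B in the interaction. The number of all genes called, with its range over the tools, filters, scalings and left-out libraries tried, was 4082 for Docetaxel against Vehicle (2347 to 4839), 2896 for Adapalene against Vehicle (1494 to 3552), 4058 for Combo against Vehicle (2486 to 4297), 3783 for Combo against Docetaxel (2292 to 4459), 6 for Combo against Adapalene (0 to 128), 4678 for Docetaxel against Adapalene (2935 to 6212) and 227 for the interaction (59 to 946). CDKN1C had at most 9 counts, too few for a difference to be detectable, and the cause of its low counts was not tested.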

Other observations

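Genes within 100 kb of the members were read as values, with no test of the neighbourhood itself. At CDKN1A, 3 of 11 neighbours were tested: the splicing factor SRSF3 fell by log2 0.47 in Adapalene and by 0.43 in Combo, with 0.11 in Docetaxel, CPNE5 rose by 0.89 in Docetaxel and by 1.21 in Combo on 7 to 31 counts per library, and the long noncoding RNA Z85996.2 rose by 2.03 in Docetaxel on 0 to 18 counts. PANDAR, a noncoding RNA next to CDKN1A, had 0 counts in every library. At CDKN1B, CREBL2 fell by log2 0.26 in Docetaxel and rose by 0.32 in Adapalene, and APOLD1, the nearest tested gene downstream, rose by 0.47, 0.50 and 0.52 in Docetaxel, Adapalene and Combo. MTAP, the metabolic gene often lost together with CDKN2A in tumours, had 959 to 1524 counts per library and fell by log2 0.26 in Combo (edgeR adjusted p = 0.0274). FAF1, whose start lies 482 bases from that of CDKN2C on the opposite strand, measured log2 −0.0049 in Docetaxel (edgeR adjusted p = 0.977), where CDKN2C fell by 0.68, and fell by 0.30 in Adapalene (edgeR adjusted p = 0.0498). At CDKN2D, S1PR5 fell by log2 0.80 in Docetaxel.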
